A study of Mus musculus with 7 samples.

Results

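The genes described here are 9 genes of MHC class II presentation and costimulation: *H2-Aa*, *H2-Ab1*, *H2-Eb1*, *H2-DMa*, *Cd74*, *Ciita*, *Cd80*, *Cd86* and *Cd274*. They were chosen by name, for their place in the pathway, and are 9 of the 20839 genes listed in any of the libraries; each was listed in 7 of 7 libraries. Their levels were read in the 8220 of 8453 cells that held no UMI of *Ptprc*, the gene for CD45. The data were droplet single-cell RNA-seq libraries of sorted mouse thymic epithelial cells, 1 library per condition. Each was made from the thymi of 3 mice pooled together, so that differences between animals were not measured. The paper sorted total thymic epithelial cells (EpCAM+ CD45-) and reports a cortical cluster beside the medullary cells (mTECs). RANKL is the cytokine that drives mTEC maturation, and the anti-RANKL antibody blocks it. The isotype controls were C57BL/6 mice given 3 injections of 100 µg of control antibody each within 1 week, taken 2 weeks later (age 4 weeks) or 10 weeks later (age 12 weeks). Anti-RANKL mice, also C57BL/6, received anti-RANKL at the same dose and schedule and were taken at week 2 (age 4 weeks), week 4 (age 6 weeks), week 6 (age 8 weeks) and week 10 (age 12 weeks), so weeks 4 and 6 had no control of their own age. The free-text description of the week 2 anti-RANKL sample names the file of the week 2 control, and the sample was placed by its title and other labels. The lineage tracing library came from C57BL/6 mice aged 6 weeks that carried Aire-CreERT2 and the R26-CAG-Stopfl-zsGreen reporter and received 2 mg of tamoxifen every other day over 10 days. There, cells in which the *Aire* promoter was active while tamoxifen was present, and their descendants, can carry ZsGreen. This library had no antibody and no untreated counterpart.

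An MHC class II molecule pairs an alpha and a beta chain and shows peptides to CD4 T cells. The invariant chain *Cd74* holds the groove until the molecule reaches endosomes, H2-DM then exchanges the remnant of the invariant chain for peptide, and *Ciita* is the coactivator that switches the class II genes on. In the thymic medulla, mature mTECs carry high surface class II and CD80, *Aire* drives the release of tissue-restricted self antigens in them, and these cells take part in deletion of self-reactive T cells and in the making of regulatory T cells.

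Each cell was thinned at random to 2000 UMIs, and a level is the summed UMIs of a gene per 10000 thinned UMIs in a class of cells of 1 library, with its 95% exact Poisson interval, which covers counting error only. Total UMIs per library ran from 3857876 in the week 6 anti-RANKL library to 22197691 in the week 2 control, and the median per cell from 4299.5 to 16809 in the same libraries. The 177 cells below 2000 UMIs, 116 at week 4 and 61 at week 6 of anti-RANKL, were left out of all levels. This left 8048 cells with no *Ptprc* UMI. Pairs of libraries shared at most 7 cell barcodes, and 50 over all 21 pairs. No doublet caller was run. Cells were put in classes by their deposited values, the natural log of 1 plus UMIs per 10000: *Aire* at 0 (5159 cells), *Aire* above 0 and up to 1.5 (1292 cells) and *Aire* above 1.5 (1769 cells). *Ccl21a*, a chemokine of an mTEC population, was above 4 in 3451 cells, and *Trpm5*, a channel of thymic tuft cells, was above 0 in 545. For comparisons at the same *Aire* level, the cells with *Aire* at 0 were split into 2962 with *Ccl21a* above 4 and no *Trpm5*, 281 with *Trpm5* and *Ccl21a* up to 4, and 1811 others, with 105 past both thresholds left out. Cortical cells were not set apart, so the *Aire* 0 cells, and the others among them, can hold cortical as well as medullary cells. Their part in the levels was not tested. All 6 epithelial markers (*Epcam*, *Krt8*, *Krt18*, *Krt5*, *Krt14* and *Foxn1*) had UMIs in each *Aire* class, with summed levels of 55.7 to 87.6 per 10000 where *Aire* was 0 and 33.4 to 51.4 where it was above 1.5. The *Aire* classes also differed in depth before thinning, with a median of 3714.5 to 11231 UMIs per cell over the libraries at *Aire* 0 and 7267 to 21905 at *Aire* above 1.5.

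*H2-Aa* encodes the class II alpha chain of I-A. In cells with *Aire* at 0, its level was 32.0 per 10000 in the tracing library, 31.5 and 43.0 in the week 2 and week 10 controls, and 22.6, 23.9, 25.4 and 34.5 at weeks 2, 4, 6 and 10 of anti-RANKL. In cells with *Aire* above 1.5 it was 69.4 in the tracing library, 70.8 and 73.8 in the controls, and 66.9, 55.7, 45.6 and 66.4 along the anti-RANKL course. The classes did not overlap, since the lowest level above 1.5, at week 6, exceeded the highest at *Aire* 0, in the week 10 control. Cells with *Aire* up to 1.5 lay between them within each library, at 28.9 to 60.4 with a median of 49.2. Within libraries, *H2-Aa* was higher above 1.5 than at 0 by 1.09 ± 0.08 (SE) on the log2 scale, in 7 of 7 libraries (limma with Benjamini-Hochberg adjustment over 8709 genes, adjusted p = 6.52e-10). The median of all genes in that comparison lay at -0.18, and relative to it the difference for *H2-Aa* was 1.27.

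**Figure D1:**
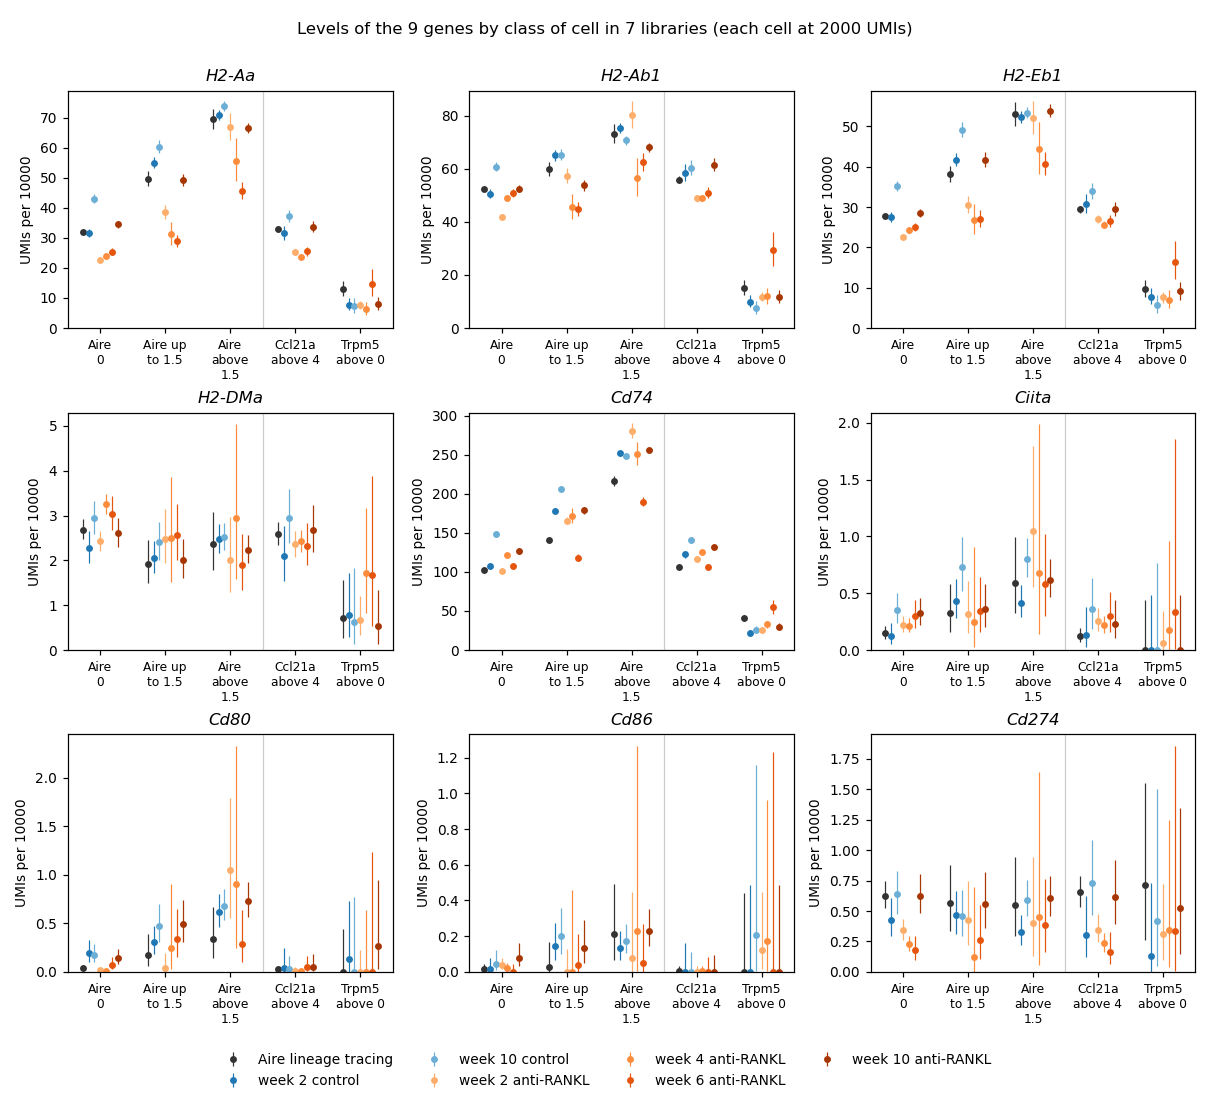
Level of each of the 9 genes (UMIs per 10000, each cell at 2000 UMIs) in 5 classes of cells without *Ptprc* UMIs; each point is 1 of 7 libraries, bars are 95% exact Poisson intervals, and the classes of *Ccl21a* and *Trpm5*, right of the grey line, hold only cells with *Aire* at 0. For *H2-Aa*, points above 1.5 run from 45.6 to 73.8 and those of *Aire* 0 from 22.6 to 43.0.

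*H2-Ab1*, the beta chain that pairs with *H2-Aa*, had levels of 42.0 to 60.8 at *Aire* 0 (median 51.0) and of 56.6 to 80.3 above 1.5 (median 70.7). These ranges overlapped, with the lowest level above 1.5 in the week 4 anti-RANKL library, where 22 cells made up the class. Within libraries *H2-Ab1* was higher above 1.5 in 7 of 7, by 0.44 ± 0.07 (SE) on the log2 scale (limma, adjusted p = 5.71e-05). *H2-Eb1*, the beta chain of I-E, ran from 22.5 to 35.2 at *Aire* 0 (median 27.5) and from 40.7 to 53.9 above 1.5 (median 52.3), with no overlap. C57BL/6 mice make no surface I-E because the gene of its alpha chain is defective, so *H2-Eb1* is here a transcript of the class II locus without its usual partner. Its difference was 0.88 ± 0.07 (SE) on the log2 scale and went the same way in 7 of 7 libraries (limma, adjusted p = 5.06e-09).

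The chains thus did not keep a fixed ratio. Per UMI of *H2-Ab1*, there were 0.485 to 0.708 UMIs of *H2-Aa* at *Aire* 0 (median 0.608) and 0.730 to 1.04 above 1.5 (median 0.947). The ranges did not overlap, and the ratio was higher above 1.5 in 7 of 7 libraries, by 1.46 to 2.03 times. *H2-Eb1* per *H2-Ab1* was also higher above 1.5 in 7 of 7 libraries, at 0.491 to 0.580 at *Aire* 0 against 0.649 to 0.792. These ratios are of UMIs from 3' counting and carry gene-specific capture, so their change between classes, not their size, is the measurement.

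*Cd74*, the invariant chain, had levels of 102 per 10000 in the tracing library, 108 and 148 in the controls, and 101, 121, 107 and 126 along the anti-RANKL course at *Aire* 0. Above 1.5 they were 217, then 252 and 249 in the controls, then 281, 251, 190 and 256 along the course. No library at *Aire* 0 reached the lowest level above 1.5, that of week 6. The difference was 1.06 ± 0.07 (SE) on the log2 scale, in 7 of 7 libraries (limma, adjusted p = 1.01e-10). *H2-DMa*, the alpha chain of the peptide exchanger, did not follow: its level was 2.27 to 3.26 at *Aire* 0 (median 2.69) and 1.89 to 2.95 above 1.5 (median 2.37). It was lower above 1.5 in 6 of 7 libraries, by -0.22 ± 0.10 (SE) on the log2 scale, which did not pass the test (limma, adjusted p = 0.0975) and is -0.04 relative to the median gene. Per UMI of *H2-Ab1*, *H2-DMa* was lower above 1.5 in 7 of 7 libraries, at 0.0449 to 0.0662 against 0.0251 to 0.0522.

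*Ciita*, the transactivator, was near the limit of detection in single cells but could be summed. Its level was 0.145 in the tracing library, 0.125 and 0.354 in the controls, and 0.219, 0.215, 0.296 and 0.323 along the course at *Aire* 0. Above 1.5 it was 0.593, then 0.417 and 0.801 in the controls, then 1.05, 0.682, 0.583 and 0.618 along the course. The ranges did not overlap, with the week 10 control the highest at *Aire* 0 and the week 2 control the lowest above 1.5. *Ciita* was higher above 1.5 by 1.20 ± 0.19 (SE) on the log2 scale in 7 of 7 libraries (limma, adjusted p = 2.48e-05). At such low levels the size depends on the pseudocount, and it ran from 0.66 to 1.45 over the settings tried, each of them with a call. After thinning, 202 of 1763 cells above 1.5 (11.5%) and 209 of 4993 cells at *Aire* 0 (4.19%) held a *Ciita* UMI; without thinning these shares were 45.0% to 67.7% and 9.65% to 18.8% over the libraries.

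*Cd80* is a ligand of CD28 and CTLA-4 and the classic costimulator of mature mTECs. At *Aire* 0 its level was 0.0388 in the tracing library, 0.194 and 0.177 in the controls, and 0.0153, 0.0117, 0.0709 and 0.141 at weeks 2, 4, 6 and 10 of anti-RANKL. Above 1.5 it was 0.339, then 0.614 and 0.683 in the controls, then 1.05, 0.909, 0.291 and 0.728 along the course. These did not overlap, but the levels above 1.5 rested on few UMIs: 6 at week 6, the lowest level, 8 in the tracing library, 13 at week 2 and 4 at week 4. The difference was 1.99 ± 0.28 (SE) on the log2 scale and was positive in 7 of 7 libraries (limma, adjusted p = 8.64e-06). At *Aire* 0 the mean of *Cd80*, 0.0927, was under the filter of 0.1 UMIs per 10000, so the gene was tested through the classes where it is high. The size of the difference leans on the pseudocount of 0.1 and ran from 0.94 to 2.83 over the settings tried, each of them with a call. A *Cd80* UMI was seen in 201 of 1763 cells above 1.5 (11.4%), in 61 of 4993 at *Aire* 0 (1.22%) and in 12 of the 2856 *Aire* 0 cells with *Ccl21a* above 4 (0.420%), all at 2000 UMIs. Without thinning the shares were 23.9% to 77.4% above 1.5, 1.01% to 16.1% at *Aire* 0 and 0.664% to 10.4% in the *Ccl21a* class.

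*Cd86*, the partner ligand of *Cd80*, had a mean under the filter of 0.1 UMIs per 10000 and was not tested between the *Aire* classes. It ran from 0 to 0.0808 at *Aire* 0 and from 0.0485 to 0.232 above 1.5, overlapping ranges in which 25 of 4993 and 52 of 1763 cells held a UMI (0.501% and 2.95%). Without thinning, 0.576% to 3.60% of cells at *Aire* 0 and 5.50% to 18.2% of those above 1.5 held one. *Cd274*, which encodes PD-L1, the ligand of the inhibitory receptor PD-1, ran from 0.177 to 0.637 at *Aire* 0 (median 0.429) and from 0.329 to 0.607 above 1.5 (median 0.455). The ranges overlapped almost entirely, and 3 of 7 libraries were higher above 1.5. The difference of 0.17 ± 0.18 (SE) on the log2 scale, with a 95% interval from -0.21 to 0.54, did not pass the test (limma, adjusted p = 0.499).

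Of the 8 genes tested above 1.5 against *Aire* 0, 6 were called higher and none lower (limma, adjusted p under 0.05), where 14.0% of all 8709 genes tested were called higher. Over those genes 1218 were higher and 2121 lower, so that 36.5% of calls were higher. With each point centred on its median gene, an alternative chosen after seeing the data, 1474 of the 8709 genes were called higher and 1513 lower. The share of calls that were higher was then 49.3%, and 6 of the genes described were called. Before centring, the median of the 8 genes described that were tested was 0.97 on the log2 scale, beside -0.18 for all genes. *Cd80* is in these counts although its mean at *Aire* 0 was under the filter, so it was tested through the classes where it is high. In cells with *Aire* up to 1.5 against *Aire* 0, 4 of 8 were called higher, with 4.47% of all genes called higher: *H2-Aa* by 0.54, *H2-Eb1* by 0.40, *Cd74* by 0.50 and *Cd80* by 1.01 on the log2 scale (limma, adjusted p = 0.000141, 0.00122, 3.98e-05 and 0.0284). At this step *Cd80* was tested through the classes where it is high, its mean at *Aire* 0 being under the filter, so nothing is drawn from its call. *Ciita*, at 0.53, did not pass (limma, adjusted p = 0.083), nor did *H2-Ab1* at 0.12, *H2-DMa* at -0.26 and *Cd274* at -0.07. Between *Aire* above 1.5 and up to 1.5, 6 of 8 were called higher where 6.84% of all genes were: *H2-Aa* by 0.55, *H2-Ab1* by 0.32, *H2-Eb1* by 0.48, *Cd74* by 0.56, *Ciita* by 0.67 and *Cd80* by 0.98 on the log2 scale, against a median of -0.11 for all genes, with 37.6% of calls higher and 51.5% after centring. *H2-Aa*, *H2-Eb1* and *Cd74* were thus called at each step of the *Aire* level, and *H2-Ab1* at the upper step. For *Ciita* and *Cd80* the calls at each step turned with the settings. At the lower step *H2-DMa* was called lower with no thinning (-0.22; limma, adjusted p = 0.0228) and weighted by cells (-0.27; 0.0106), and *H2-Ab1* was called higher weighted by cells (adjusted p = 0.034). *Cd80* at the lower step lost its call without the tracing library (adjusted p = 0.0752), the week 10 control (0.0877), the week 6 anti-RANKL library (0.0623) or the week 10 anti-RANKL library (0.107), all by limma, with log2 differences of 1.01, 1.00, 0.95 and 0.96 that stayed near the one of all libraries. At the upper step *Cd80* fell to 0.63 (limma, adjusted p = 0.0866) and *Ciita* to 0.54 (0.0713) on the log2 scale without the week 2 anti-RANKL library. Both lost their calls. Leaving out the week 4 anti-RANKL library brought *Ciita* past the threshold at the lower step (limma, adjusted p = 0.0392), as did a second seed (0.0401), thinning to 4000 UMIs (0.0279), no thinning (0.000101), an *Aire* threshold of 2 (0.00355) and weighting by cells (0.0006), while it reversed without cells holding any immune marker UMI, as given below. At the upper step *Ciita* lost its call without the deepest 5% of cells (limma, adjusted p = 0.0786) and weighted by cells (0.0518). With no filter on low genes *Cd80* lost its call at the lower step (limma, adjusted p = 0.0801) and at the upper step (0.0554). *Cd80* also lost it at the lower step with a larger pseudocount (limma, adjusted p = 0.0627), an *Aire* threshold of 1 (0.237) or *Aire* classes set at 4000 UMIs (0.125), and at the upper step with a smaller pseudocount (0.0617) or an *Aire* threshold of 2 (0.0656). The 727 genes called at the lower step fell to 465 without the tracing library, 427 without the week 2 control, 389 without the week 10 control and 384 without the week 10 anti-RANKL library.

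Immune markers moved with the *Aire* classes, although cells with a *Ptprc* UMI were left out. Of 6 macrophage or myeloid markers, 6 had UMIs, and their summed level was 0.383 to 2.42 per 10000 at *Aire* 0 (median 1.49) and 3.30 to 9.79 above 1.5 (median 6.85), led by *Lyz2* with 2.52 to 7.70 above 1.5. Of 3 leukocyte markers, *Ptprc* was at 0 by the choice of cells and the other 2 summed to 0.344 to 1.91 at *Aire* 0 (median 0.882) and 3.18 to 5.43 above 1.5 (median 4.80), led by *Laptm5*. In limma, *Lyz2* was higher above 1.5 by 2.32, *Fcer1g* by 1.66, *Laptm5* by 2.06 and *Coro1a* by 1.77 on the log2 scale. The markers that define lymphocytes and dendritic cells were low: 8 of 9 T cell markers had UMIs and summed to 0 to 1.13 above 1.5 (median 0.392, led by *Cd3d*) and to 0.179 to 0.465 at *Aire* 0 (median 0.319, led by *Lck*), with *Trac* not named in the files. B cell markers summed to 0 to 0.551 above 1.5 (4 of 4 with UMIs, median 0.406, led by *Cd79b*) and 0.0548 to 0.242 at *Aire* 0 (median 0.0917). Dendritic cell markers summed to 0.375 to 0.805 above 1.5 (5 of 8 with UMIs, median 0.501, led by *Ccr7*) and 0.0355 to 0.389 at *Aire* 0 (median 0.180); *Itgax* and *Cd209a* were at 0 above 1.5, *Itgax* and *Siglech* at *Aire* 0, and *Clec9a* is not named in the files. *Zbtb46* rose by 1.08 and *Ccr7* by 0.69 on the log2 scale above 1.5 (limma, adjusted p = 0.000125 and 0.0288). At 2000 UMIs, 59.1% to 81.4% of cells above 1.5 and 12.8% to 36.0% at *Aire* 0 held a UMI of at least 1 of these immune markers. Without all such cells, an alternative chosen after seeing the data, the same comparison of *Aire* above 1.5 with *Aire* 0 called *H2-Aa*, *H2-Ab1*, *H2-Eb1*, *Cd74*, *Ciita* and *Cd80* higher, and *H2-DMa* lower by -0.51 on the log2 scale (limma, adjusted p = 0.0336). The share of all genes called in that setting is not given here, so these calls are not set against a background. At the lower step none of the 4 calls was made without those cells: *H2-Aa* was 0.36, *H2-Eb1* 0.21 and *Cd74* 0.34 on the log2 scale, smaller than with all cells, while *Cd80* kept its size at 1.06 without passing (limma, adjusted p = 0.101, 0.320, 0.0598 and 0.182). In the planned setting, which looked for immune marker UMIs before thinning and so left fewer cells, the lower step was near 0, with *H2-Aa* at 0.07, *H2-Eb1* at 0.04 and *Cd74* at 0.08 (limma, adjusted p = 0.823, 0.903 and 0.584), and *Ciita* turned from 0.53 to -0.48 (adjusted p = 0.768). At the upper step *H2-Aa*, *H2-Ab1*, *H2-Eb1* and *Cd74* were called without those cells, and *Cd80*, at 0.31, and *Ciita*, at 0.49, were not (limma, adjusted p = 0.619 and 0.375).

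Among cells with *Aire* at 0, those with *Ccl21a* above 4 and no *Trpm5* had class II levels close to those of the other cells. *H2-Aa* was 33.0 in the tracing library, 31.5 and 37.2 in the controls and 25.3, 23.6, 25.5 and 33.7 along the anti-RANKL course, against 32.3, 35.8, 51.0, 20.5, 25.7, 26.2 and 39.2 in the same order in the other cells. The ranges overlapped, and the *Ccl21a* class was lower in 5 of 7 libraries. None of 7 genes tested was called (limma over 8889 genes, 639 of which, or 7.19%, were called in either direction), with *Cd80* and *Cd86* below the filter. An unadjusted p under 0.05 was reached by 1 of the 7, near the share of all genes, 16.1% (limma). That gene was *H2-DMa*, at 2.09 to 2.94 against 2.68 to 5.06, lower in 7 of 7 libraries by -0.47 ± 0.18 (SE) on the log2 scale (limma, unadjusted p = 0.0157, adjusted p = 0.146). Weighted by cells it was called, at -0.57 (limma, adjusted p = 0.000195). With *Aire* classes set at 4000 UMIs 1 of the genes described was called, other than *H2-DMa*. The level of *Cd80* was also lower in 7 of 7 libraries, at 0.00605 to 0.0513 against 0.0246 to 0.299, from 12 and 48 UMIs in all, and was not tested. Of the 639 calls 32.9% were higher, and 45.7% after centring on the median gene. In the *Ccl21a* class 1 of 2 myeloid and 1 of 2 leukocyte markers tested were called lower, *Lyz2* by -2.53 and *Laptm5* by -1.60 on the log2 scale (limma). The 1 dendritic cell marker tested, *Ccr7*, was called lower by -1.53 (limma, adjusted p = 0.0154). The whole dendritic cell list summed to at most 0.0909 in the *Ccl21a* class, under the filter of 0.1. *Ccr7* was thus tested through the other *Aire* 0 cells, and nothing is drawn from its call. The part of these markers in the levels was not tested. Over all 3343 cells with *Ccl21a* above 4 at 2000 UMIs, whatever their *Aire*, *H2-Aa* ran from 23.6 to 38.7 (median 33.7), *Cd74* from 106 to 146 and *Cd80* from 0.00576 to 0.0662, and 41 of the 3451 cells before thinning had *Aire* above 1.5.

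Cells with *Trpm5*, marking the tuft-like mTECs, were the low end for class II. Among cells with *Aire* at 0, *H2-Aa* was 13.0 in the tracing library, 7.76 and 7.29 in the controls and 7.65, 6.21, 14.7 and 8.03 at weeks 2, 4, 6 and 10 of anti-RANKL. The highest of these, week 6 with 15 cells, was below the lowest level of the other *Aire* 0 cells, 20.5. The class was lower by -1.83 ± 0.15 (SE) on the log2 scale in 7 of 7 libraries (limma, adjusted p = 1.37e-09). *H2-Ab1* ran from 7.50 to 29.3 (median 11.7) against 37.1 to 66.6, and was lower by -2.0 ± 0.17 (SE; limma, adjusted p = 1.79e-09). *H2-Eb1* ran from 5.62 to 16.3 (median 7.76) against 17.6 to 39.2, and was lower by -1.62 ± 0.16 (SE; limma, adjusted p = 2.66e-08). Both were lower in 7 of 7 libraries with no overlap, and week 6 was again the highest. *Cd74* ran from 21.6 to 54.7 (median 30) against 89.7 to 166, lower by -1.89 ± 0.14 (SE; limma, adjusted p = 1.65e-10). *H2-DMa*, which did not separate the *Aire* classes, was 0.526 to 1.72 against 2.68 to 5.06, lower by -1.88 ± 0.18 (SE; limma, adjusted p = 2.38e-08). *Ciita* had a mean level of 0.0811 in this class, under the filter of 0.1, and of 0.281 in the other *Aire* 0 cells. It was thus tested through the classes where it is high. Nothing is drawn from its call as lower (limma, adjusted p = 0.00289, lower in 6 of 7 libraries). The class held 3 *Ciita* UMIs in 267 cells, and the size of the difference is set by the pseudocount. It ran from -2.48 to -0.44 on the log2 scale over the settings tried. The call was lost with a second thinning seed (limma, adjusted p = 0.0521) and without cells holding any immune marker UMI (0.151). *Cd274* ran from 0.132 to 0.714 against 0.193 to 0.632, a difference of -0.11 with a 95% interval from -0.62 to 0.40 (limma, adjusted p = 0.785).

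Of 7 genes tested, 6 were lower in the *Trpm5* class, where 17.9% of all 8889 genes were called lower (limma). *Ciita* is counted among the 6, but its class mean was under the filter and its call turned on the seed. It was tested through the classes where it is high, so its call adds nothing to this count. The median of the 7 was -1.83 beside -0.15 for all genes, and relative to that shift *H2-Aa* was lower by -1.68. *Cd80* and *Cd86* were below the filter, with 3 of 267 cells each. The share of *Trpm5* cells without any UMI of the 3 chains *H2-Aa*, *H2-Ab1* and *H2-Eb1* ran from 0% (0 of 15 cells, 95% upper bound 21.8%) at week 6 to 18.4% at week 10, and the median cell held 2 to 8 such UMIs of 2000. Over all libraries 25 of 267 *Trpm5* cells had none, beside 54 of 4993 at *Aire* 0, 0 of 1763 above 1.5 and 0 of 2856 in the *Ccl21a* class. The median cell held 17 to 25 class II UMIs at *Aire* 0, 27 to 38 above 1.5 and 19 to 26 in the *Ccl21a* class. Among all 531 *Trpm5* cells at 2000 UMIs, whatever their *Aire* and *Ccl21a*, *H2-Aa* was higher, at 11.7 to 30.7 (median 24.1); 66 of the 545 before thinning had *Aire* above 1.5. Leukocyte markers in the *Aire* 0 *Trpm5* class summed to 0.833 to 3.40 (2 of 3 with UMIs, led by *Laptm5*), against 0.431 to 2.95 in the other *Aire* 0 cells. *Lyz2* was lower there by -1.79 and *Coro1a* by -0.97, and *Cd79b* was higher by 1.37 on the log2 scale (limma). *Ccr7* was called lower by -1.52 (limma), but the whole dendritic cell list summed to at most 0.0617 in this class, under the filter of 0.1. *Ccr7* was thus tested through the other *Aire* 0 cells, and nothing is drawn from its call. Of the 7 named dendritic cell markers, 6 were at 0 in the *Trpm5* class.

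The anti-RANKL course asks how these genes move while *Aire* cells are lost and return. At 2000 UMIs, cells with *Aire* above 1.5 were 40.4% and 44.0% of cells in the week 2 and week 10 controls, 5.24%, 1.64%, 15.7% and 38.7% at weeks 2, 4, 6 and 10, and 8.95% in the tracing library. Over all cells without *Ptprc* UMIs, *H2-Aa* was 53.9 and 60.4 in the controls and 26.8, 24.6, 29.3 and 49.7 at weeks 2, 4, 6 and 10. Weeks 2, 4 and 6 lay below both controls, with 95% Poisson intervals that did not touch, and week 10 lay closer to the controls but still below both. As a fold of the week 2 control *H2-Aa* was 0.497, 0.457, 0.543 and 0.922, and of the week 10 control 0.444, 0.407, 0.485 and 0.822. *H2-Eb1* was 41.4 and 46.3 in the controls and 25, 24.7, 27.9 and 40.9 along the course. *Cd74* was 185 and 205 in the controls and 118, 125, 123 and 186 along the course. Both genes were low through week 6 and at week 10 within or close to the controls. *H2-Ab1* moved less, from 64.6 and 66.1 in the controls to 45.8, 49.2, 51.6 and 58.8. *H2-DMa* was 2.29 and 2.63 in the controls and 2.41, 3.23, 2.77 and 2.35 along the course, highest at week 4 and otherwise within or near the controls. *Cd80* was 0.394 and 0.465 in the controls and 0.0718, 0.0336, 0.160 and 0.435 along the course, lowest at week 4, where it rested on 9 UMIs. *Cd274* was 0.399 and 0.577 in the controls and 0.355, 0.231, 0.228 and 0.606, and *Ciita* 0.328 and 0.634 in the controls and 0.274, 0.224, 0.350 and 0.444. For these, week 10 lay within or above the pair of controls, and the controls themselves differed by more than some weeks did from them.

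**Figure D2:**
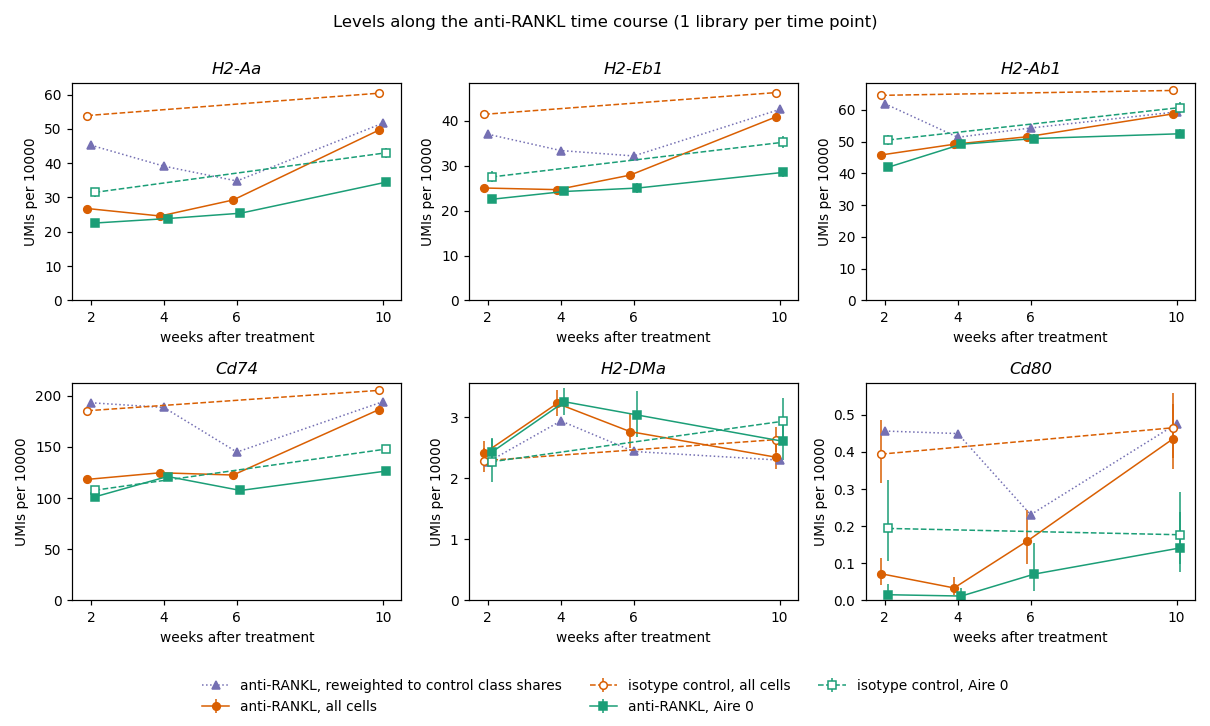
Levels of 6 of the genes (UMIs per 10000, each cell at 2000 UMIs) against weeks after treatment, 1 library per point, for anti-RANKL and isotype control libraries over all cells without *Ptprc* UMIs, over cells with *Aire* at 0, and for anti-RANKL reweighted to the mean *Aire* class shares of the controls; bars are 95% exact Poisson intervals, and the reweighted points have none. Over all cells *H2-Aa* falls to 24.6 at week 4 and is 49.7 at week 10.

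With 1 library per time point there is no test for a single week, and all weeks share the same controls. A gene was called lower at a week where its level was at least 1.5 times below both controls, counting only genes whose mean was 0.5 UMIs per 10000 or more, as it was for 5 of the 9 (*H2-Aa*, *H2-Ab1*, *H2-Eb1*, *H2-DMa* and *Cd74*). At week 2, 3 of the 5 were called lower (*H2-Aa*, *H2-Eb1* and *Cd74*), with 10.4% of 2683 genes. At week 4 these were *H2-Aa* and *H2-Eb1*, with 15.7% of genes, and at week 6 *H2-Aa* and *Cd74*, with 16.6%. At week 10, 0 of the 5 were called, with 0.298% of genes, 8 in number, which became 25 without the week 2 control and 70 without the week 10 control. *H2-Ab1* and *H2-DMa* were called in no week.

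The drop over all cells mixes the loss of *Aire* cells with levels inside each class. Among cells with *Aire* at 0, *H2-Aa* was 31.5 and 43.0 in the controls and 22.6, 23.9, 25.4 and 34.5 along the course, and *Cd74* was 108 and 148 in the controls and 101, 121, 107 and 126. *H2-Aa* was below both controls at weeks 2, 4 and 6 and between them at week 10, while *Cd74* lay between the controls at weeks 4 and 10. Beside the control of the same age, both genes were lower at week 2 and at week 10, which was not tested. The make-up of the *Aire* 0 class changed as well: cells with *Ccl21a* above 4 and no *Trpm5* were 115 of 361 and 165 of 424 in the controls and 553 of 981, 903 of 1389, 249 of 478 and 195 of 495 along the course, and the part of this was not tested. With the same rule, 0 of 5 were called lower at weeks 2, 4, 6 and 10 in *Aire* 0 cells, with 4.21%, 9.87%, 14.1% and 0.943% of 2756 genes. This rests on the week 2 control: without it, against the week 10 control alone, 2 of the 5 were lower at week 2, 1 at week 4 and 1 at week 6, and *H2-Aa* was 0.524, 0.554 and 0.591 of that control. The counts of all genes behind these shares also moved: from 116 at week 2 to 202 without the week 2 control and 247 without the week 10 control, from 272 at week 4 to 420 and from 388 at week 6 to 587 without the week 10 control, and from 26 at week 10 to 89 and 143 without the week 2 or the week 10 control. When each anti-RANKL library was reweighted to the mean *Aire* class shares of the controls, *H2-Aa* was 45.2, 39.1, 34.8 and 51.6. *H2-Aa* was higher in both classes with *Aire* above 0 in 7 of 7 libraries, and both classes gained weight. A rise over the level of all cells was thus fixed in advance, and nothing is drawn from it. At week 4 weights of 24.8% and 42.2% fell on 40 and 22 cells, without an interval. With this reweighting 0 of 5 were called lower at week 2 (3.89% of 2675 genes), 0 at week 4 (13.0%), *H2-Aa* alone at week 6 (14.2%) and 0 at week 10 (0.411%). At week 6 *H2-Aa* was also the lowest of all libraries in both classes with *Aire* above 0, at 45.6 above 1.5, where the controls had 70.8 and 73.8; that library had the lowest depth and the fewest cells. Its cells above 1.5 also differed in make-up, with *Ccl21a* above 4 in 17 of 109, beside 2 of 456 and 5 of 549 in the controls, and a *Ccl21a* level of 54.4 beside 3.84 and 3.69. The part of depth and of make-up in the level of *H2-Aa* was not tested.

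Taking the 4 anti-RANKL libraries together against the 2 controls puts the recovery into the error. Over all cells limma called 0% of 8717 genes at an adjusted p under 0.05 and 1354 at an unadjusted p under 0.05; of the 8 genes described that were tested, 0 and 4. *H2-Aa* was lower by -0.86 ± 0.28 (SE) on the log2 scale (limma, unadjusted p = 0.0157, adjusted p = 0.319). It was -0.34 without cells holding any immune marker UMI, a setting that takes out most cells above 1.5. Without the week 10 anti-RANKL library, limma called 607 genes higher and 829 lower (9.56% lower), among them 4 of the 8. These were *H2-Aa* by -1.09, *H2-Eb1* by -0.76, *Cd74* by -0.68 and *Cd80* by -1.54 on the log2 scale (limma, adjusted p = 0.00616, 0.0108, 0.00945 and 0.0117). The calls rest on whether that library is counted with the early ones. *Cd80* was 0.0718, 0.0336 and 0.160 at weeks 2, 4 and 6 of anti-RANKL, against 0.394 and 0.465 in the controls. It passed the filter of 0.1 through the controls, and the size of its difference leans on the pseudocount, so nothing is drawn from its call. In *Aire* 0 cells 0% of 8723 genes were called and 816 had an unadjusted p under 0.05, with 0 and 1 of the 8 tested. That 1 was *Cd80*, which passed the filter there through the controls and was not tested without the week 10 anti-RANKL library, so nothing is drawn from it. In these cells *H2-Aa* was lower by -0.49 ± 0.21 (SE; limma, adjusted p = 0.528). Without the week 10 anti-RANKL library 10 genes were higher and 127 lower there, none of them among the 7 then tested (limma; for *H2-Aa* -0.62 on the log2 scale, adjusted p = 0.122). Above 1.5, 0% of 8371 genes were called and 113 had an unadjusted p under 0.05, none of them among the 9 (limma). The difference between the *Aire* classes was itself compared between antibodies: 0% of 8758 genes were called, 154 had an unadjusted p under 0.05, and none of these was among the 8 tested (limma); without the week 10 anti-RANKL library 6 genes were called, none of the 8. With 4 and 2 libraries a difference of modest size can be missed.

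Immune markers also varied along the course. Over all cells the myeloid list (6 of 6 with UMIs, led by *Lyz2*) summed to 4.50 and 4.45 in the controls and 2.96, 0.433, 1.06 and 5.47 at weeks 2, 4, 6 and 10, and the leukocyte list (2 of 3, led by *Laptm5*, *Ptprc* at 0 by choice) to 3.41 and 3.85 in the controls and 1.19, 0.414, 1.45 and 3.16. The dendritic cell list (7 of 8 with UMIs, led by *Ccr7*) summed to 0.385 and 0.461 in the controls and 0.110, 0.0784, 0.129 and 0.290 along the course. T cell markers stayed between 0.266 and 0.433 in these libraries and B cell markers between 0.0522 and 0.341. The part of these in the course of the class II genes was not tested. Without cells holding any immune marker UMI, 0 of 5 were called lower at weeks 2, 4 and 6. Over all genes 94 were then lower at week 2 and 175 at week 4, beside 278 and 420 with those cells. Before thinning, 79.8% to 100% of cells above 1.5 in a library held such a UMI. That setting thus takes out the class whose share changes and does not bear on the markers apart from it.

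The tracing library allows the *Aire* 0 cells to be split by ZsGreen, which 413 of 1031 of them held (40.1%), beside 106 of 118 cells above 1.5 (89.8%). The median depth was 9268 UMIs in the *Aire* 0 cells with a ZsGreen UMI and 7870 in those without. In *Aire* 0 cells *H2-Aa* was 31.7 with ZsGreen (95% Poisson interval 30.5 to 33.0) and 32.2 without (31.2 to 33.2). *H2-Ab1* was 51.8 with and 53.1 without, and *Cd74* 104 with and 101 without. For each of the 9 genes the intervals overlapped, so no difference could be detected at this depth between all *Aire* 0 cells with and without the reporter. Among the other *Aire* 0 cells, with neither *Ccl21a* above 4 nor *Trpm5*, ZsGreen was seen in 95 of 190 (50.0%), and *H2-Aa* was 36.5 with (33.9 to 39.3) and 28.1 without (25.7 to 30.5), *H2-Ab1* 51.1 with and 43.9 without, and *Cd74* 105 with and 93.1 without, none of them overlapping. The intervals of the other 6 genes overlapped there, *H2-Eb1* among them at 27.9 with (25.6 to 30.4) and 23.7 without (21.6 to 26.0). These other *Aire* 0 cells held a median of 20 class II UMIs per cell and a maximum of 93. The Poisson intervals do not cover that spread between cells, and the differences were not tested. In cells with *Ccl21a* above 4, of which 326 of 875 held ZsGreen (37.3%), *Cd74* was 113 with (110 to 116) and 106 without (104 to 108), and the intervals of the other 8 genes overlapped. In the *Aire* 0 cells with *Trpm5*, ZsGreen was seen in 31 of 42 (73.8%), and *H2-Aa* was 15.6 with (12.7 to 19.1) and 5.45 without (2.82 to 9.53), *H2-Ab1* 17.7 with and 7.73 without, and *Cd74* 50.2 with and 14.5 without. For these 3 the intervals did not overlap, and for *H2-Eb1*, at 11 with and 5.91 without, they did. A few cells carried much of that level, with a median of 3 class II UMIs per cell and a maximum of 48, a spread between cells that the Poisson intervals do not cover. Over all *Trpm5* cells of that library, whatever their *Aire* and *Ccl21a*, *H2-Aa* was 24.1 in 49 cells with and 18.3 in 21 without, and the intervals of all 9 genes overlapped. The *Aire* 0 cells with *Trpm5* and without ZsGreen numbered 11, had a median of 6616 UMIs against 11592 before thinning, and came from 1 library, so no test was made; ZsGreen RNA free in the droplets was not measured apart.

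Within a class, cells with and without a UMI of the rarer genes could be compared for their class II UMIs, summed over *H2-Aa*, *H2-Ab1* and *H2-Eb1*, as the difference of mean log2(UMIs + 1) per library. At *Aire* 0, cells with a *Ciita* UMI had more class II in 7 of 7 libraries, by 0.38 on average (SD 0.31; exact two-sided sign-flip permutation test, p = 0.0156, the smallest that 7 libraries allow). Over the 8 comparisons made, this did not pass (Benjamini-Hochberg adjusted p = 0.125). Above 1.5 *Ciita* cells did not have more, with -0.03 and 2 of 6 libraries higher (exact sign-flip permutation p = 0.500, adjusted p = 0.667). Cells with a *Cd80* UMI above 1.5 had 0.27 more in 5 of 6 libraries (exact sign-flip permutation p = 0.0625, adjusted p = 0.167), and at *Aire* 0 0.50 more in 4 of 5 (p = 0.125, adjusted p = 0.250, by the same exact test). Cells with *Cd274* had 0.27 more above 1.5 in 5 of 6 libraries (exact permutation p = 0.0625, adjusted p = 0.167) and 0.03 more at *Aire* 0 in 4 of 7 (exact permutation p = 0.641). For *Cd86* only 3 libraries had enough cells in either class, where the smallest p allowed is 0.250, and the differences were 0.45 above 1.5 and 0.02 at *Aire* 0.

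Other genes of the class II pathway were taken as a list of 12 (*H2-DMb1*, *H2-DMb2*, *H2-Oa*, *H2-Ob*, *H2-Eb2*, *Rfx5*, *Rfxank*, *Rfxap*, *Ctss*, *Ctsl*, *Lgmn* and *Ifi30*), all of them tested. Above 1.5 against *Aire* 0, 6 were higher and 1 lower (limma), with a median of 0.78 beside -0.18 for all genes. Of all genes tested 14.0% were higher and 24.4% lower. *H2-Eb2* was higher by 2.61 and *H2-Oa*, a chain of the DM inhibitor H2-O, by 1.84, and *Ctsl*, the protease that trims the invariant chain in cortical thymic epithelium, was lower by -3.14 on the log2 scale (limma, adjusted p = 2.54e-10, 2.90e-09 and 1.29e-10). At each of the lower and upper steps of *Aire* 6 were higher and 1 was lower, where of all genes 4.47% and 6.84% were higher and 3.88% and 11.3% lower. *Ctsl* was higher by 0.82 in the *Ccl21a* class, the 1 call on the list there, where 2.36% of all genes were higher and 4.83% lower (limma, adjusted p = 0.00411). In the *Trpm5* class, where 17.9% of all genes were lower and 11.4% higher, 7 of 12 were lower and 0 higher, *Ctsl* by -2.07, *H2-DMb2* by -1.78 and the lysosomal protease *Ctss* by -1.60. Over all cells, anti-RANKL against isotype gave 0 calls on this list and 6 of 12 at an unadjusted p under 0.05 (limma), where 15.5% of all 8717 genes were.

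Of 16 further genes of costimulation and coinhibition, 8 passed the filter, and above 1.5 against *Aire* 0 6 of them were higher and 2 lower, with a median of 1.42 on the log2 scale, against 14.0% and 24.4% of all genes. *Cd40*, which receives help from T cells, was higher by 2.26, *Icosl*, the ligand of ICOS, by 2.09 and *Cd70*, the ligand of CD27, by 1.99 (limma, adjusted p = 4.52e-10, 1.29e-07 and 6.61e-06). *Nectin2* is not named in the files under that symbol. At the lower step 3 were higher and 2 lower, and at the upper step 6 higher and 1 lower, against the shares of all genes given above for these steps. In the *Trpm5* class 6 of 8 were lower, with 17.9% of all genes, among them *Cd200* by -1.88, *Cd70* by -1.68 and the adhesion ligand *Icam1* by -1.54, and in the *Ccl21a* class *Cd70* was lower by -1.70 and *Lgals9* higher by 0.70 (limma). Of 8 genes of class I presentation tested above 1.5 against *Aire* 0, 2 were higher, *Tapbp* by 0.48 and *B2m* by 0.38, and the peptide transporter *Tap2* was lower by -0.71, with a median of -0.04. The 3 of 8 called are near the 38.3% of all genes called in either direction. In the *Trpm5* class 1 of 8 was higher, *H2-D1* by 0.44, and 3 were lower, where 11.4% of all genes were higher and 17.9% lower. Of 6 genes between interferon-gamma and *Ciita*, 1 was higher above 1.5, the receptor chain *Ifngr2* by 0.98, and 3 were lower, among them *Ifngr1* by -1.43 on the log2 scale (limma, adjusted p = 1.27e-06 and 1.44e-06). Of all genes 14.0% were higher and 24.4% lower, so 1 of 6 higher is near the background. In anti-RANKL against isotype over all cells, these 3 lists gave 0 calls and 3 of 9, 2 of 8 and 1 of 6 tested genes at an unadjusted p under 0.05 (limma), counts to be read against 15.5% of all genes.

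Likeness was measured as Pearson r of log2 levels over 35 points, 7 libraries by 5 exclusive classes, among 8902 genes; points share their library and the genes that define their class, so r is a description. Most like *H2-Aa* were *H2-Eb1* (r = 0.987), *Cd74* (0.971), *H2-DMb2* (0.968), *H2-Ab1* (0.940) and *Phgdh* (0.914), an enzyme of serine synthesis. Most like *Cd80* were *Tm4sf5* (r = 0.928), *Dnase1l3* (0.889), *Calcb* (0.883), *Tnfrsf4* (0.881) and *Msi1* (0.881). *Cd274* had no gene close to it: the nearest were *Glipr2* (r = 0.676), *Slc26a2* (0.624), *Psmb8* (0.619), *Cdc34* (0.612) and *Slc25a25* (0.608). Between the genes described, r was 0.845 for *H2-Aa* with *Ciita*, 0.682 with *Cd80*, 0.653 with *H2-DMa* and 0.338 with *Cd274*.

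On the GRCm38 genome (GENCODE vM21), the class II chains and *H2-DMa* lie within 1 stretch of chromosome 17: *H2-DMa* at chr17:34119541-34139101 on the plus strand, *H2-Ab1* at chr17:34257689-34269419 on the plus strand, *H2-Aa* at chr17:34282744-34287823 on the minus strand and *H2-Eb1* at chr17:34305867-34316674 on the plus strand. *Cd86* (chr16:36603869-36666081, minus strand) and *Cd80* (chr16:38455561-38496335, plus strand) lie on chromosome 16, as does *Ciita* (chr16:10480059-10528418, plus strand), and *Cd274* is at chr19:29367455-29388095 on the plus strand. All are protein-coding, and the spans run over the whole gene.

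Class II promoters are known for an X box and a Y box that recruit the factors to which *Ciita* binds. The RefSeq promoter table (GRCm38.p6, 300 bases around each gene start) holds 5 of the 9 genes: *H2-Aa*, *H2-Eb1*, *H2-DMa*, *Cd80* and *Cd274*. An X box core written as GNNACNGAT and a Y box core written as CCAAT were searched on both strands. Over 32851 promoters 7.82% held the first, 37.4% the second and 0.764% both within 30 bases of each other. Of the 5 genes *H2-Eb1* held both, 23 bases apart, in the window chr17:34305776-34305812 on the plus strand. It is shown since *H2-Eb1* is the gene nearest in level pattern to *H2-Aa*; capitals mark the X box on the plus strand and the Y box read on the minus strand.
H2-Eb1: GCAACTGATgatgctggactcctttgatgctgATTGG
The promoter of *H2-Aa* held 1 CCAAT and no match to the X box letters, 1 of 2 listed for *H2-DMa* held CCAAT, and those of *Cd80* and *Cd274* held neither. These are matches of letters, and binding was not measured.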

How the data were processed

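The authors deposited 1 table per library with the natural log of 1 plus UMIs per 10000 for each gene and cell; per the submitters' processing notes these came from Cell Ranger 2.2.0 and Seurat 2.3.4. Whole UMIs were recovered from these values in every cell (tolerance 0.001). A table lists a gene only if it was seen in at least 3 cells, so a gene not listed in a library was taken as 0. The ZsGreen row was kept out of totals and tests, and 2 combined tables were not used. Each cell was thinned once to 2000 UMIs.

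UMIs were summed per library and class (at least 10 cells), taken as log2(UMIs per 10000 + 0.1) and tested two-sided with limma (trend) over genes with a mean of at least 0.1; class comparisons, and their difference between antibodies, had library as block. Antibody comparisons within a class had 1 point per library and no block. Residual degrees of freedom were 12 for class comparisons and 4 for those with antibody. Since each library is 1 pool, p-values measure the spread between these pools. P-values were adjusted by Benjamini-Hochberg over all genes tested. No count model was fitted. The scripts were tested on simulated data. Genes named are the 9 members, listed genes, and the 5 most alike to a member. The values of 1 listed gene are not reported here. Members and lists were chosen with earlier results of these data known. Of the alternatives tried, 27 were planned and 2 were added after the data were seen. Analyses used R 4.3.3 with limma 3.58.1, and Python 3.11.15 with pandas 2.3.3, numpy 2.4.6, matplotlib 3.10.9 and scipy 1.17.1.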

Additional observations from a re-analysis of the deposited data

Results flagged for a closer look

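For *Cd86*, the difference between cells with *Aire* above 1.5 and cells with *Aire* up to 1.5 was 0.90 larger on the log2 scale in the anti-RANKL libraries than in the controls, on average. By library it was -0.08 and -0.14 in the controls of weeks 2 and 10 and 0.85, 1.71, 0.11 and 0.50 at weeks 2, 4, 6 and 10 of anti-RANKL, so the average leans on week 4, where 22 cells had *Aire* above 1.5. *Cd86* was under the filter on low genes and rested on few UMIs, and this difference between the antibodies was not tested.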

How the results depend on the processing

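Counts of genes called by limma moved with the settings as follows, and the cause was not tested. Aire above 1.5 against Aire 0: 3339 genes, 5227 with no thinning and 1397 with a mean of at least 0.5 UMIs per 10000. Aire above 1.5 against Aire up to 1.5: 1584 genes, 3099 with no thinning, 2409 thinned to 4000 UMIs, 877 with a mean of at least 0.5 and 2383 weighted by cells. Ccl21a above 4 against other Aire 0 cells: 639 genes, 1465 with no thinning, 1142 thinned to 4000 UMIs, 347 with a mean of at least 0.5, 2264 weighted by cells, 296 without cells holding any immune marker UMI and 354 without those holding one among the thinned UMIs; of the members, 1 was called with Aire classes set at 4000 UMIs and 1 weighted by cells, in place of 0. Trpm5 above 0 against other Aire 0 cells: 2608 genes, and 1262 with a mean of at least 0.5.

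Aire up to 1.5 against Aire 0: 727 genes, 2726 with no thinning, 1210 thinned to 4000 UMIs, 384 to 1040 with 1 library left out (465 without Aire lineage tracing, 427 and 389 without the isotype control of week 2 or week 10, 384 without anti-RANKL week 10), 348 without the deepest 5% of cells, 400 with the Aire threshold at 1, 1457 at 2, 2336 weighted by cells, 13 with no immune UMI and 99 with no immune UMI among the thinned UMIs. Members called there were 4, 7 weighted by cells, and 0 with no immune UMI, thinned or not.

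Anti-RANKL against isotype in all cells: 0 genes, 1 with no filter on low genes and 1436 without anti-RANKL week 10, when 4 members were called in place of 0, Cd80 among them through the levels of the controls. In Aire 0 cells: 0 genes, 137 without anti-RANKL week 10 and 2 with no immune UMI among the thinned UMIs. In Aire above 1.5 cells: 0 genes, 1 weighted by cells and 10 with no immune UMI among the thinned UMIs. The Aire class difference between antibodies: 0 genes, and 6 without anti-RANKL week 10.

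Weekly levels against both controls in all cells, genes lower. At week 2: 278 genes, 469 with a fold of 5/4, 154 with a fold of 2, 94 with no immune UMI and 104 reweighted to the class shares of the controls; members 3, then 1 with a fold of 2, 0 with no immune UMI and 0 reweighted. At week 4: 420 genes, 254 with a fold of 2 and 175 with no immune UMI; members 2, then 4 with a fold of 5/4, 1 with a fold of 2, 0 with no immune UMI and 0 reweighted. At week 6: 445 genes, 736 with a fold of 5/4 and 229 with a fold of 2; members 2, then 4 with a fold of 5/4, 0 with a fold of 2, 0 with no immune UMI and 1 reweighted. At week 10: 8 genes, 67 with a fold of 5/4, 2 with a fold of 2, 25 without the week 2 isotype control, 70 without the week 10 one and 73 with no immune UMI.

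Weekly levels against both controls in Aire 0 cells, genes lower. At week 2: 116 genes, 288 with a fold of 5/4, 60 with a fold of 2, 202 without the week 2 isotype control and 247 without the week 10 one; members 0, then 1 with a fold of 5/4 and 2 without the week 2 control. At week 4: 272 genes, 491 with a fold of 5/4, 136 with a fold of 2, 356 without the week 2 control, 420 without the week 10 control and 152 with no immune UMI; members 0, then 1 with a fold of 5/4 and 1 without the week 2 control. At week 6: 388 genes, 717 with a fold of 5/4, 173 with a fold of 2, 512 without the week 2 control and 587 without the week 10 control; members 0, then 1 without the week 2 control. At week 10: 26 genes, 10 as a mean over cells of unthinned values, 134 with a fold of 5/4, 2 with a fold of 2, 89 and 143 without the week 2 or week 10 control, and 74 with no immune UMI.

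Some log2 differences changed sign, most of them small. Cd274, Aire above 1.5 against Aire 0: -0.0054 with the Aire threshold at 2 and -0.0064 weighted by cells. Cd274, Aire up to 1.5 against Aire 0: -0.1486 to 0.0103 with 1 library left out (the highest without anti-RANKL week 4) and 0.0751 with no immune UMI among the thinned UMIs. H2-Ab1 in that comparison was -0.0664 with no immune UMI and -0.0204 with none among the thinned UMIs, and Ciita -0.48 with no immune UMI. Cd274, Trpm5 above 0 against other Aire 0 cells: 0.18 with a second seed, -0.2224 to 0.1269 with 1 library left out (the highest without the week 2 isotype control), 0.0015 with Aire classes at 4000 UMIs and 0.14 with the Ccl21a threshold at 3. The class II difference by Cd86 UMI at Aire 0 ran from -0.3361 without anti-RANKL week 10, over -0.0431 without anti-RANKL week 2, to 0.4385, and by Cd274 UMI at Aire 0 from -0.0045 without the week 10 isotype control to 0.0749.

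With 1 pool per time point, animals, age and treatment time cannot be told apart from the library, and limma assumes that time points with 1 library vary like the others. Aire classes rest on detection, so cells of low depth with some Aire can stand at 0. The setting with no immune UMI was not run for comparisons that need Aire above 1.5, since too few cells were left. No doublet caller was run, and RNA free in the droplets was not measured. RNA levels say nothing of surface protein. By replicate number, no paired analysis was possible because the antibody groups share fewer than 2 numbers. Pairing by week and age, which match 2 controls to 2 anti-RANKL libraries, was possible and was not fitted. Class comparisons are within library.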
